A study of Mus musculus with 2 samples.

Results

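GATA4 occupancy was examined at 10 apolipoprotein genes, Apoa1, Apoa2, Apoa4, Apoa5, Apob, Apoc1, Apoc2, Apoc3, Apoe and Apoh, of 22380 protein-coding genes in GENCODE M1. A GATA4 occupied site (OS), meaning a ChIP-seq peak called by both SPP and MACS2, was counted for a gene when its midpoint lay in the gene body or within 50 kb of it. By that rule 6 of the 4409 OS lay at 5 of the 10 genes. Of these, 3 lay at Apoa2, 2 were shared by Apoc1, Apoc2 and Apoe, and 1 lay upstream of Apoh. The other 5 genes, namely the Apoa1, Apoc3, Apoa4 and Apoa5 cluster and Apob, had no OS in that reach.

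The OS came from whole livers of adult C57BL/6 x Sv129 mice at 2-3 months of age, from which chromatin was pulled down with GATA4 C-20, an antibody from Santa Cruz (sc-1237). Input DNA from liver of the same strain and age, taken without an antibody, was the background, and the labels name no further treatment or allele. According to the paper, peaks were called on each biological replicate and on the merged reads, and regions with concordant ranks in both replicates were kept. Each deposited list is thus 1 set of peaks without values per replicate, and no error between replicates can be given. The counts below are therefore described beside the same counts over all genes or all OS and carry no test. Whole liver mixes hepatocytes with endothelial, stellate and other cells, and the lists cannot assign an OS to one of them. They hold no expression values either, so the tissue could not be checked against its marker genes.

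GATA4 is a zinc finger transcription factor that binds DNA at the motif WGATAR, and in liver it is known from hepatocytes, sinusoidal endothelial cells and stellate cells and from the liver bud of the embryo. Apolipoproteins are the protein coat of the particles that carry lipids in blood. Most of them are made in hepatocytes, and they give a particle its structure, act as ligands of its receptors, or turn on or off the enzymes that hydrolyse its triglyceride. Several of their genes sit side by side in small clusters, so that 1 OS can lie near several of them.

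The sequences of 5 of the 6 OS are shown first, because the motif content and the positions described below refer to them. They are read from the plus strand of mm9, and capitals mark each match to WGATAR, that is GATA preceded by A or T and followed by A or G, on either strand. A match on the minus strand reads as the reverse complement, such as TTATCT for the form AGATAA. Numbers are the positions of the OS in the common list. OS 441 is chr1:173154021-173154231, upstream of Apoa2. OS 2613 is chr1:173196581-173196735, downstream of Apoa2. OS 3054 is chr7:20276341-20276448, inside Apoc1. OS 3248, between Apoc1 and Apoe, is printed over its central 300 bases, chr7:20280578-20280877. OS 1269 is chr11:108168554-108168743, upstream of Apoh.
OS 441: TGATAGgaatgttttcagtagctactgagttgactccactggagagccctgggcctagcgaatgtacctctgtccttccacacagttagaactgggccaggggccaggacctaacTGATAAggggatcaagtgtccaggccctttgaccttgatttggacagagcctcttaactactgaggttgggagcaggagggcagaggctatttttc
OS 2613: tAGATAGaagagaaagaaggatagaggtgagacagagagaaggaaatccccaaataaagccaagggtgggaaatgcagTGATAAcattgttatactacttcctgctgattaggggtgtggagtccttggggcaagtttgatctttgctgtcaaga
OS 3054: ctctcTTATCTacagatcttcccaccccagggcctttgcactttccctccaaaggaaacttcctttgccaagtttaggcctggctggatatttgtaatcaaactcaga
OS 3248: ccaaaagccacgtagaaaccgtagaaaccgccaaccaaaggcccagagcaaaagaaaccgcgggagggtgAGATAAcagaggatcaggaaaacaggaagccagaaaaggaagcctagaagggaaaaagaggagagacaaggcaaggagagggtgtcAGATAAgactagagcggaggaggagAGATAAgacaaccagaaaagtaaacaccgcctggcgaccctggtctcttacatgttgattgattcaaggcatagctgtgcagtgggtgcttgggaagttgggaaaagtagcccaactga
OS 1269: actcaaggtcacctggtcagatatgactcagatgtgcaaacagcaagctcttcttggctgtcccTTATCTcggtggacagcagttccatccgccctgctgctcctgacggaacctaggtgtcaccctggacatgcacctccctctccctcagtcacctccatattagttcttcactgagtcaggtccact

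At least 1 OS lay in the body or within 50 kb of 5 of the 10 apolipoprotein genes, and the same held for 6194 of 22380 protein-coding genes (27.7%). The 5 genes are not independent, since 3 of them count the same 2 OS. In all, the 10 genes make up 5 separate loci, and 3 of these held an OS. In the SPP list alone, 6 of the 10 genes had a peak by the same rule, against 29.2% of all protein-coding genes. In the MACS2 list 5 of the 10 genes had one, against 33.9%. Within 5 kb of the gene, 3 of the 10 genes had an OS (Apoa2, Apoc1 and Apoe), against 11.3% of all protein-coding genes. No apolipoprotein gene had an OS within 1000 bp of a transcription start site (TSS), where 769 protein-coding genes (3.44%) had one. With MACS2 peaks 1 gene, Apoa2, had a peak that near, at 963 bp, and the background was 5.19%.

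**Figure D1:**
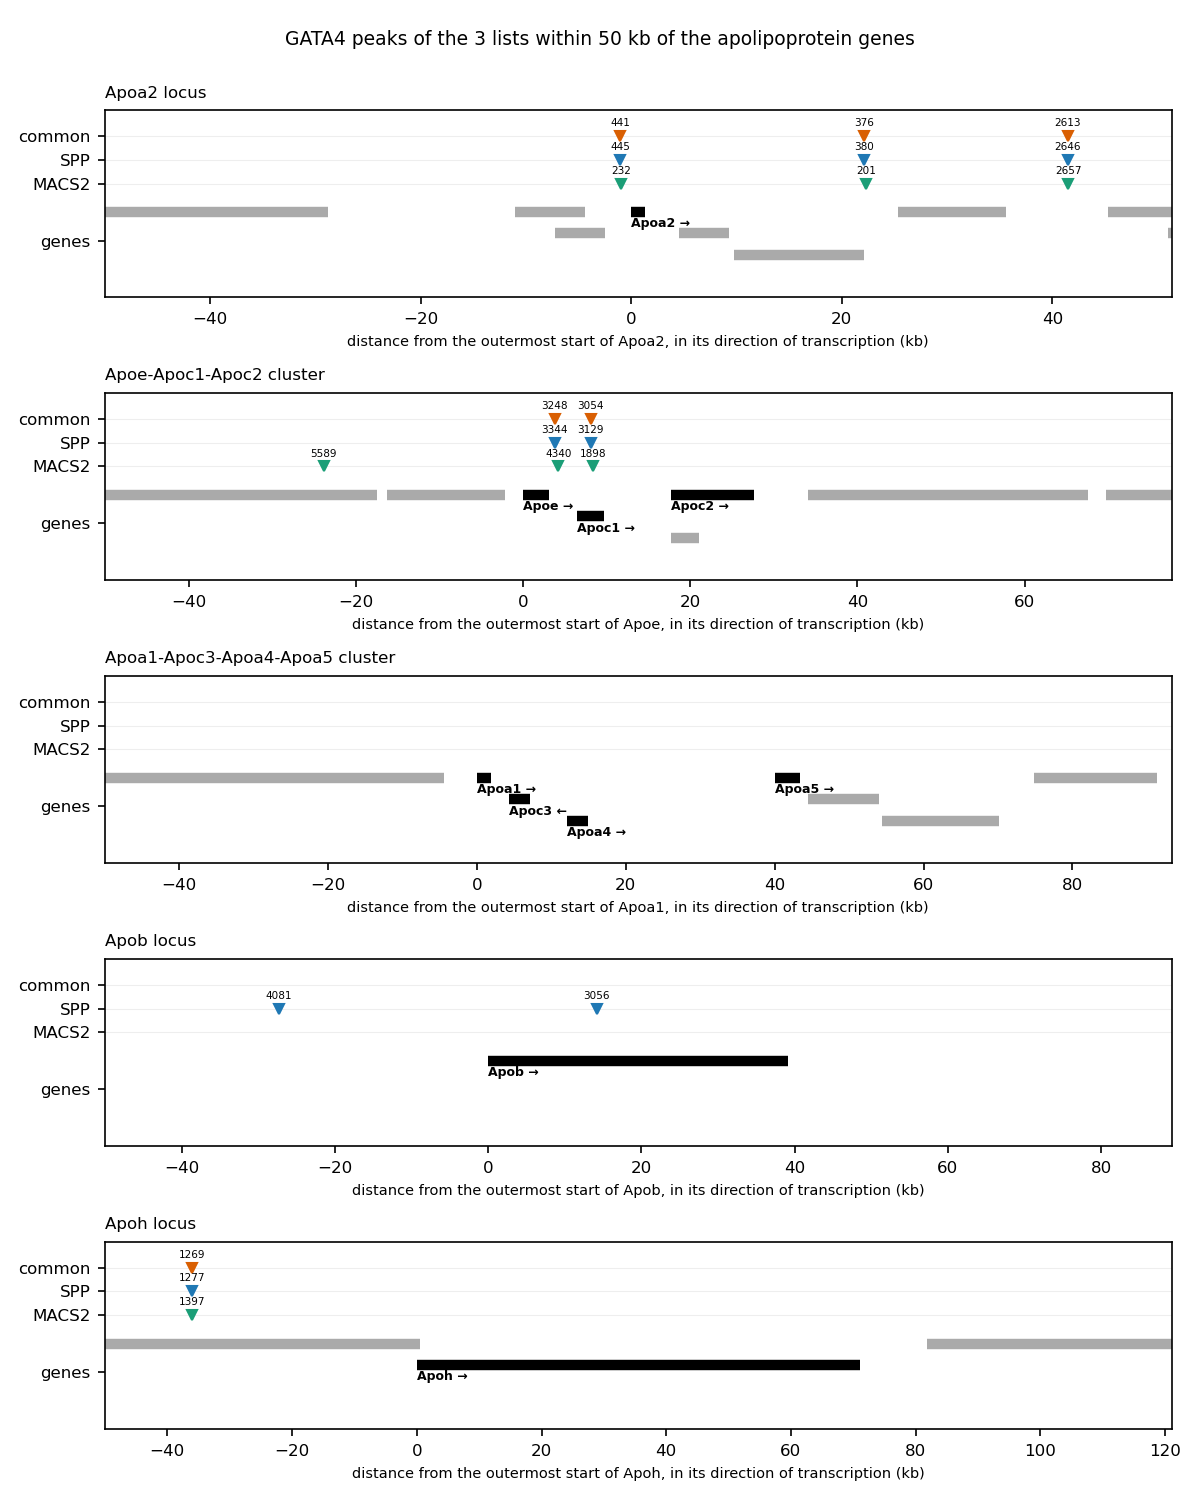
Peaks of the common, SPP and MACS2 lists at the 5 apolipoprotein loci, plotted by distance in kb from the outermost start of the named gene in its direction of transcription. Triangles are peaks with their list positions, black bars are the apolipoprotein genes and grey bars, without names, the other protein-coding genes, with arrows for the direction of transcription of the named genes along the plot. Common OS stand at the Apoa2, Apoe-Apoc1-Apoc2 and Apoh loci, the Apob locus holds 2 SPP peaks only, and the Apoa1-Apoc3-Apoa4-Apoa5 cluster holds none.

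Apoa2 encodes apolipoprotein A-II, the second most abundant protein of high density lipoprotein (HDL). The gene lies at chr1:173155185-173156510 on the plus strand (mm9), and it had 3 OS, a number reached or passed by 726 of 22380 protein-coding genes (3.24%). The OS nearest to it, OS 441, was 211 bp wide and centred 1059 bp upstream of the outermost TSS, between genes and just outside the 1000 bp limit for a promoter. The starts of the other annotated Apoa2 transcripts put it at -1087, -1089 and -1096 bp. It stood at 10% of the common list, at position 445 of the SPP list and at position 232 of 5867 in the MACS2 list. Of all protein-coding genes, 9.52% had an OS nearer to the gene body than Apoa2 did.

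The other OS at Apoa2 lay nearer to other genes. OS 376 was 227 bp wide and lay 20799 bp past the end of Apoa2. OS 2613 was 155 bp wide, lay 40148 bp past the end of Apoa2 and at -3801 bp from the TSS of B4galt3, a galactosyltransferase gene. The OS were 23183 bp (441 to 376) and 19349 bp (376 to 2613) from each other. The locus is dense in genes, with 8 other protein-coding genes within 50 kb of Apoa2, and only OS 441 had Apoa2 as the gene of its nearest TSS. Proximity alone does not link an OS to a gene.

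OS 376 and OS 441 stood highest in the lists among the 6 OS. OS 376 was at 8.53% of the common list and at position 201 (3.43%) of the MACS2 list, and OS 441 was at 3.95% of the MACS2 list. OS 2613 stood at 59.3% of the common and 45.3% of the MACS2 list. The files do not say what the numbering follows, and every peak has the same score, so a low number is not read as a strong peak.

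Apoe, Apoc1 and Apoc2 lie in a row of 27.6 kb on the minus strand of chromosome 7. Apolipoprotein E is a ligand through which remnant particles are taken up by the liver. Apolipoprotein C-I slows the uptake of such particles, and apolipoprotein C-II is the cofactor that lipoprotein lipase needs. The cluster held 2 OS, 4333 bp apart, and both were counted for all 3 genes.

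OS 3054 was 108 bp wide, the narrowest of the 6, and lay in intron 2 of the 3-exon transcript of Apoc1 (gene at chr7:20274833-20278007), 1551 bp after its TSS. It lay 5064 bp past the end of Apoe. From Apoc2 (chr7:20256928-20266772) it lay 9622 bp upstream of the outermost start and at -13104 bp from the start of Apoc2-001, the transcript with most exonic bases. OS 3248 was 320 bp wide and lay between genes, at -2720 bp from the outermost TSS of Apoc1 and 731 bp past the end of Apoe (chr7:20281458-20284515). It lay 3788 bp after the start of the longest Apoe transcript, Apoe-001, and 2869 bp after the nearest annotated Apoe start. It was at -13955 bp from the outermost start of Apoc2. In both cases Apoc1 was the gene of the nearest TSS.

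Both OS stood in the lower part of the common list, at 69.3% (OS 3054) and 73.7% (OS 3248). The MACS2 list placed them further apart, at 32.4% and 74%. An additional MACS2 peak, at position 5589 (95.3% of that list), met no peak of the SPP list. It was 752 bp wide, at chr7:20307965-20308716 in intron 5 of Pvrl2, at -7553 bp from a start of Tomm40, upstream of Apoe, and the nearest SPP peak was 27.1 kb away. Apoc4, the apolipoprotein gene that overlaps Apoc2 and was not among the 10, had the same OS 3054 and OS 3248 within 50 kb.

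Apoh encodes a plasma glycoprotein that binds negatively charged phospholipids. Its single OS, OS 1269, was 190 bp wide and lay in intron 2 of Prkca (transcript Prkca-001), the neighbouring gene for a protein kinase C. It was 36020 bp upstream of the outermost Apoh start, which belongs to Apoh-002, a transcript of 3 exons and 367 exonic bp. From the longest transcript, Apoh-001, with 8 exons and 1190 exonic bp, it was at -87959 bp, and from the starts of Apoh-003 and Apoh-004 at -73830 and -73835 bp. Apoh therefore counts as a gene with an OS only through its outermost start, and 4 of the 10 genes had an OS when a gene's body was taken from its longest coding transcript alone. OS 1269 stood at 28.8% of the common and 23.8% of the MACS2 list. The next common OS was 521192 bp from it. Over all annotated transcripts an apolipoprotein gene had the nearest TSS for 4 of the 6 OS (441, 1269, 3054 and 3248), and with 1 TSS per gene, that of the longest transcript, for 3, since Prkca then replaced Apoh at OS 1269.

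Apob encodes apolipoprotein B, the structural protein of low and very low density lipoprotein and of chylomicrons. It is the longest of the 10 genes after Apoh, at 39188 bp (chr12:7984454-8023641, plus strand), with no other protein-coding gene within 50 kb. No common OS lay in that reach, and the nearest one, OS 626 at chr12:8117223-8117443, was 93692 bp from the gene body. The SPP list alone held 2 peaks there. SPP peak 3056 (63.5% of the list, chr12:7998440-7998759) lay in intron 15 of Apob, 14014 bp after the nearest Apob TSS, and SPP peak 4081 (84.8%, chr12:7956982-7957301) lay between genes at -27313 bp from Apob. Both were 320 bp wide, a width shared by 361 of the 402 SPP peaks that met no MACS2 peak (89.8%) and by 1127 of the 4409 common OS (25.6%).

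The nearest MACS2 peak was 118 kb from SPP peak 3056 and 160 kb from SPP peak 4081. SPP peak 3056 held 2 matches to WGATAR and SPP peak 4081 held 3, and 85.1% of all SPP peaks without a MACS2 partner held at least 1. The central 300 bases of SPP peak 3056, chr12:7998450-7998749 on the plus strand, are shown because this was the only peak of any list inside the body of Apob, with WGATAR in capitals.
SPP peak 3056: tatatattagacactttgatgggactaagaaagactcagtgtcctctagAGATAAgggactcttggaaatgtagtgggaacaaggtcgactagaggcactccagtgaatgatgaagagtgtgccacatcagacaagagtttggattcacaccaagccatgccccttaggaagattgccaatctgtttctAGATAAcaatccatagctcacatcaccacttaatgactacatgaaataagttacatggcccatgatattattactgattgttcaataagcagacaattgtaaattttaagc

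Apoa1, Apoc3, Apoa4 and Apoa5 form a cluster of 43.3 kb on chromosome 9. Apolipoprotein A-I is the main protein of HDL and activates the enzyme that esterifies its cholesterol, apolipoprotein C-III inhibits lipoprotein lipase, apolipoprotein A-IV is carried on chylomicrons and HDL, and apolipoprotein A-V promotes the hydrolysis of triglyceride by lipoprotein lipase. No peak of the common, SPP or MACS2 list lay within 50 kb of any of these 4 genes. The same common OS, OS 1521 at chr9:46288332-46288490, was the nearest to each of them. It was 208409 bp from Apoa5 (chr9:46076716-46080002), 236869 bp from Apoa4 (chr9:46048779-46051542), 244.7 kb from Apoc3 (chr9:46041016-46043719) and 249862 bp from Apoa1 (chr9:46036663-46038549). The nearest MACS2 peak, at position 3788 of that list, was 82385 bp from Apoa5 and 123838 bp from Apoa1.

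**Figure D2:**
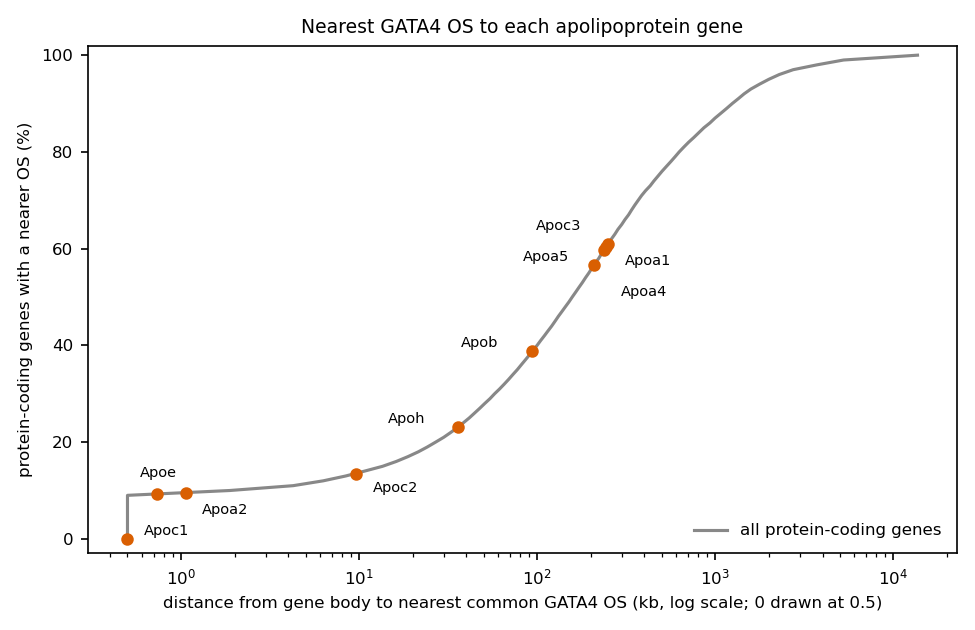
Distance in kb from the body of each apolipoprotein gene to the nearest common OS (log axis, with 0 drawn at its left end) against the percentage of protein-coding genes with a nearer one. Orange points are the 10 genes and the grey line is all protein-coding genes. Apoc1, Apoe, Apoa2 and Apoc2 lie at the near end and the Apoa1 cluster past the middle, at 56.6% to 60.9%.

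Ordered by distance from the gene body to the nearest OS, Apoc1 (0 bp) came first, then Apoe (731 bp), Apoa2 (1059 bp), Apoc2 (9622 bp), Apoh (36020 bp), Apob (93692 bp), Apoa5, Apoa4, Apoc3 and Apoa1. The median over 22350 protein-coding genes on chromosomes with an OS was 157 kb, with quartiles of 41.5 and 477 kb. The 5 genes with an OS were nearer than the lower quartile, which follows largely from the rule, since it used the same distance. Apob lay between the lower quartile and the median, and the 4 genes of the Apoa1 cluster lay beyond the median. No gene of the Apoa1 cluster was past the upper quartile. At the 50 kb limit of the rule, the farthest OS inside it was OS 2613 at 40148 bp from Apoa2 and the nearest outside it was OS 626 at 93692 bp from Apob.

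The authors kept only reads with a single place in the genome, so the share of each locus that is unique was counted. Of the 48-base words at the loci, sampled every 5 bp, 97.3% in the Apoa1 cluster and its flanks occurred once in the genome, against 93.2% at Apob, 93% at Apoh, 95% at the Apoe cluster and 96.8% at Apoa2. The highest share of the 5 was that of the Apoa1 cluster, which had no peak in any list. Whether read mapping bears on where peaks were called was not tested.

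WGATAR matches were counted in each locus with its 50 kb flanks. The window of the Apoa1 cluster with its flanks held 209 matches in 143.3 kb, and no OS. The window of the Apoe cluster had the same density, 1.46 matches per kb, with 186 matches and 2 OS. The Apoa2 window held 186 matches (1.84 per kb), the Apob window 319 (2.29 per kb) and the Apoh window 444 (2.6 per kb). Over the genome the density was 2.64 per kb, so all 5 windows lay below it. Of the matches, 4 at Apoa2, 4 at the Apoe cluster and 1 at Apoh lay inside an OS. The Apoa1 cluster and Apob windows, without an OS, had 0. Over the genome 0.0849% of all matches lay inside an OS. Windows that hold an OS tend to hold such matches, so these counts are not compared with that share.

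WGATAR occurred in 5 of the 6 OS (83.3%, Wilson 95% interval 43.6 to 97%, counting error only), beside 3655 of all 4409 OS (82.9%). In equally wide windows placed 5000 bp further right, it was held by 1 of 6 and by 31.9%. The exception was OS 376, which held 1 match to the shorter core (WGATA or GATAR, which every WGATAR match also holds) and had the highest GC content of the 6, 60.4%. All 6 OS held such a core, against 92.9% of all OS, with 3 of 6 and 54.9% in the neighbouring windows.

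The 9 WGATAR matches in the OS were AGATAA in 5 cases, TGATAA in 2, and AGATAG and TGATAG in 1 each, and over all OS these letters made up 44.6%, 26.8%, 17.5% and 11% of 5734 matches. OS 3248 held 3 copies of AGATAA, at -76, 10 and 35 bp from its midpoint. OS 441 held TGATAG at -102 bp, at its very edge, and TGATAA at 13 bp. OS 2613 held AGATAG at -73 bp and TGATAA at 4 bp. OS 1269 and OS 3054 each held AGATAA on the minus strand, at -27 and -45 bp. The match nearest to the midpoint was 4 to 45 bp away, with a median of 13 bp over 5 OS, beside 18 bp over the 3655 OS with a match.

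**Figure D3:**
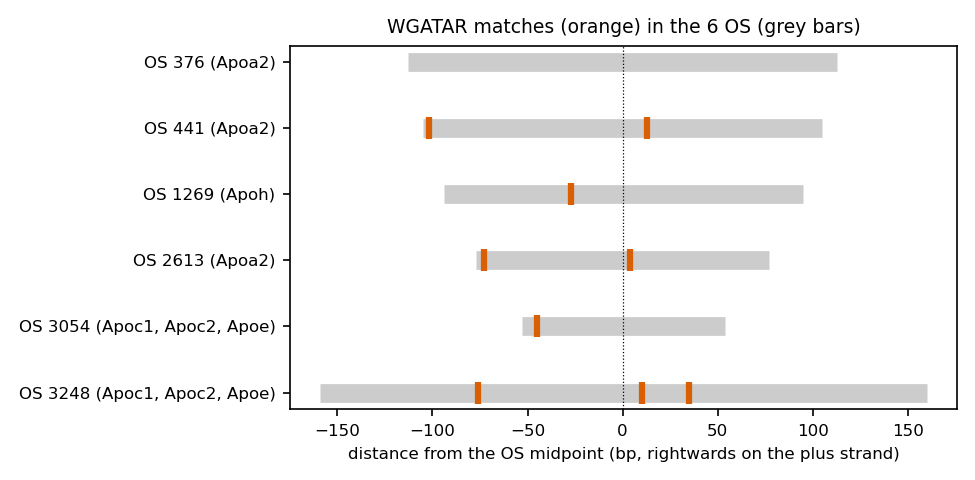
Matches to WGATAR on either strand (orange marks) in the 6 OS (grey bars), by distance in bp from the OS midpoint along the plus strand. OS 376 has none, OS 3248 has 3, and the other 4 OS have 1 or 2.

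Other motifs were matched on both strands of the OS. The ETS letters, CGGAAG or its variant AGGAAG, occurred in 4 of 6 OS (376, 2613, 3054 and 3248) and in 48.3% of all OS. The nuclear receptor element AGGTCA occurred in OS 376, OS 441 and OS 1269, against 24.3% of all OS, and in OS 441 it is read on the minus strand as tgacct. The FOXA letters, TGTTTAC or its variants TATTTAC and also TGTTTGC, occurred in OS 1269 and OS 3248, against 14.7%. The E-box letters, CAGATG or its variant CAGCTG, occurred in OS 1269 alone, against 28.2%. The HNF4 letters CAAAGTCCA, the HNF1 letters GTTAAT and the C/EBP letters TTGCNNAA were in none of the 6, and 1.16%, 5.28% and 12.7% of all OS held them. For each of these motifs the Wilson 95% interval over the 6 OS held the share of all OS, and 0 of 6 allowed up to 39%. A match describes letters and is not a bound site.

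**Figure D4:**
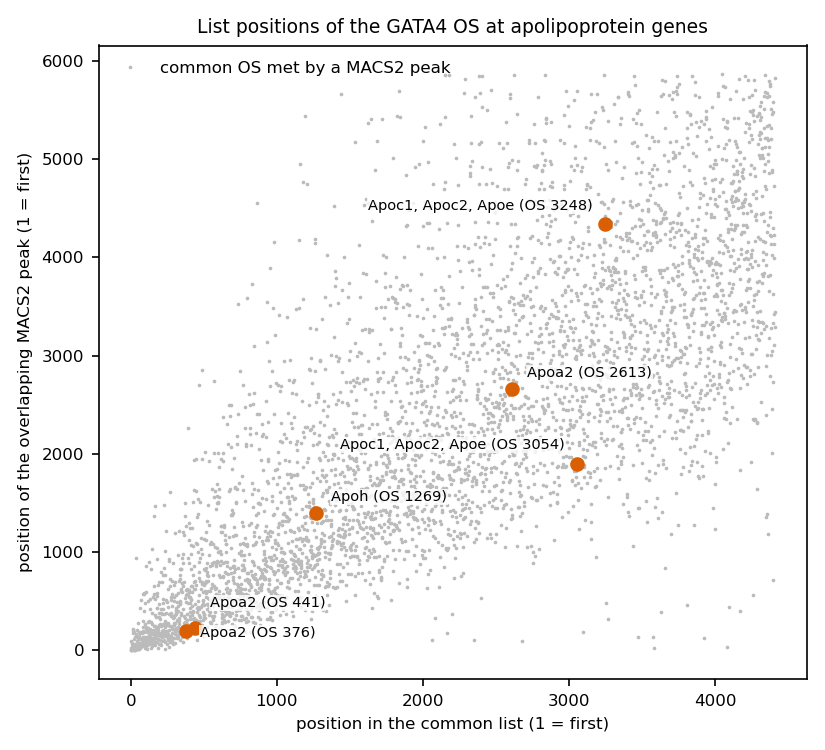
Position of each common OS in the common list against the position of the overlapping MACS2 peak (both 1 = first). Grey points are all OS, orange points the 6 OS at apolipoprotein genes. OS 376 and OS 441 stand near the start of both lists, and OS 3054 and OS 3248 stand together on the x axis and apart on the y axis.

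The 6 OS had a median width of 200.5 bp (108 to 320) beside 190 bp over all OS, and a median GC content of 51% beside 49.4%. Their median position was at 44% of the common list, from 8.53% to 73.7%. The median number of protein-coding genes within 50 kb was 7.5 (2 to 11) beside 2 over all OS, where the rule itself required at least 1. Of the 6 OS, 3 were at the Apoa2 locus and 2 at the Apoe cluster. The OS of 1 locus share neighbouring genes, so the 6 are not independent. The median distance to the nearest TSS of any gene was 2136 bp beside 10570 bp, and the rule also favours a short distance, since it kept only OS near a gene. Each of the 6 was covered along its whole width by a MACS2 peak of 374 to 1290 bp, and no MACS2 peak was itself covered by at least 50% by the OS. SPP held 8 peaks at the 10 genes, of which 2 met no common OS, and over the whole list 402 of 4811 did not (8.36%). MACS2 held 7, of which 1 met no common OS, and over the whole list 1496 of 5867 did not (25.5%).

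The promoters of the 10 genes, from 250 bp before to 50 bp after the start of the longest transcript, held WGATAR in 3 cases (Apoa1, Apoa4 and Apoc2), against 26.9% of all protein-coding genes. None of the 3 stretches lay in an OS, which follows from the counts above. No OS midpoint lay within 1000 bp of a TSS of these genes, and no OS was wider than 631 bp. The stretches are shown on the strand of the gene, with the match in capitals, as letters of the motif at which no OS was called. The Apoa1 stretch is chr9:46036467-46036526 (plus strand), the Apoa4 stretch chr9:46048529-46048584 (plus strand) and the Apoc2 stretch chr7:20263291-20263336 (minus strand). A core match was present in 6 of 10 promoters, against 48.2%.
Apoa1 promoter: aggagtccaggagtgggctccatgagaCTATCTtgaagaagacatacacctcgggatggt
Apoa4 promoter: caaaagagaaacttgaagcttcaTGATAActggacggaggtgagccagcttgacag
Apoc2 promoter: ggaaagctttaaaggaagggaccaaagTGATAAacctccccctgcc

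Genes of lipoprotein handling and further genes classed as apolipoproteins were counted by the same rule, in lists written by hand. Of 50 such genes, 20 had an OS in the body or within 50 kb (40%). Within 5 kb 10 had one, against 11.3% of all protein-coding genes, and within 1000 bp of a TSS 3 had one, against 3.44%. The genes are not independent, since Abcg5 and Abcg8 share OS 87 and Apoc4 shares its OS with the Apoe cluster. By group, 6 of 11 genes of receptors and uptake, 3 of 10 genes of lipases and their modulators, 5 of 9 genes for the assembly and editing of particles with apolipoprotein B, 3 of 6 genes of lipid efflux and 3 of 14 further apolipoprotein genes had one. These counts stand beside 27.7% of all protein-coding genes and 5 of 10 for the apolipoprotein genes. The list of further apolipoprotein genes includes Apol6, Apobr, Apoo and Apool, none with an OS. A place in that list does not show that a gene acts on lipoprotein particles.

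**Figure D5:**
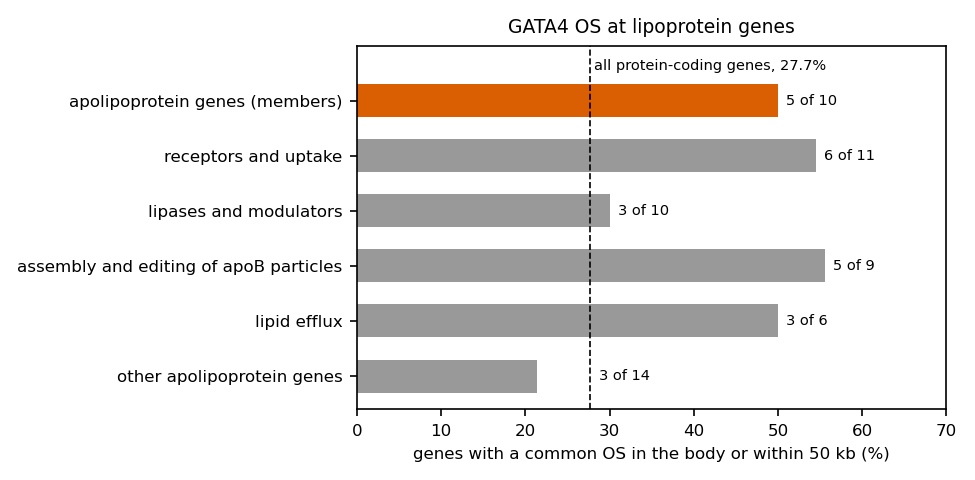
Percentage of genes with a common OS in the body or within 50 kb in the 10 apolipoprotein genes (orange) and in the 5 lists written by hand (grey), with counts beside the bars. The dashed line is the share of all protein-coding genes, 27.7%. The further apolipoprotein genes, 3 of 14, are the only group below it.

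The 3 genes with an OS within 1000 bp of a TSS were in the efflux and receptor groups. OS 87 lay at -17 bp from a start of Abcg5 and -93 bp from one of Abcg8, 2 genes whose annotated bodies overlap. The midpoint of OS 87 was inside the body of Abcg8. The products of both genes form the transporter that secretes sterols into bile. OS 815 lay at -312 bp from a start of Scarb1, the receptor that takes up cholesterol from HDL, which had 2 OS in all. Abcg8 also had 2 OS. Abca1, the transporter that loads lipid onto apolipoprotein A-I, had 3 OS, the nearest 17230 bp after a start.

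In the receptor group, the fatty acid transporter Cd36 and the syndecan Sdc1 had 2 each. Lpl, the lipase that apolipoprotein C-II activates, had 2 OS, among them OS 19, and its nearest OS was 34.2 kb from the gene. Angptl4, an inhibitor of that lipase, had 2, among them OS 119, with the nearest 7.37 kb from the gene. Sar1b, needed for the export of chylomicrons from the endoplasmic reticulum, had 2, among them OS 105. Every other gene with an OS in the assembly group had 1, among them Mttp, which loads lipid onto apolipoprotein B, with OS 4124 at 2107 bp after a start. Among the further apolipoprotein genes, Apod and Clu had 1 OS each and Apoc4 shared the 2 of the Apoe cluster.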

How the data were processed

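GATA4 ChIP-seq of whole mouse liver was analysed from 3 deposited peak lists. The authors aligned reads of 48 bp to mm9 with Bowtie 0.12.7, discarded reads with several places, ran a modified SPP and MACS2 2.0.10 for each replicate and for merged reads over merged input, set thresholds by the irreproducible discovery rate, and intersected both lists with bedtools 2.16.1, keeping the SPP coordinates. The deposited score is 1000 for every peak and was not used. No reads or counts are in the lists, so depth per peak is unknown here, and the input entered only through the peak calls. Genes were taken from GENCODE M1 on the same build (37310 genes). Peaks were assigned by midpoint to gene bodies of all transcripts with 50 kb on each side, and motifs were matched exactly on both strands. A share of sites has a Wilson interval at 95%. Overlap meant at least 1 bp. All 10 genes were named, with list genes that had a promoter OS, the 2 genes with most OS in each list, and neighbours holding the nearest TSS. Host genes of peaks and ties were added after their values were seen. With 1 sample, no gene was named for a like pattern. Some items that the naming rule covers are not reported here. The members and lists were chosen with earlier results of these data known. Alternatives changed the window, the peak list, the transcripts, the upper part of the list, the overlap, the control windows and the assignment to the nearest TSS. Python 3.11.15, numpy 2.4.6, scipy 1.17.1, numba 0.67.0 and matplotlib 3.10.9 were used, and 600 of 600 queries on simulated peaks and sequences were answered correctly.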

Additional observations from a re-analysis of the deposited data

How the results depend on the processing

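The 6 OS at apolipoprotein genes became 3 with windows of 5 or 10 kb, with the upper part of the common list (the first of 2 equal parts), and with assignment to the nearest TSS when each gene had 1 TSS, that of its longest transcript. The 5 genes with an OS became 3 with windows of 5 kb and 2 with the upper part of the list or with that assignment. Windows of 100 kb gave 7 OS at 6 genes, SPP 8 at 6, MACS2 7 at 5, and the longest protein-coding transcript, an alternative chosen after seeing the data, 5 at 4. WGATAR was found in 16.67% of the windows 5000 bp to the right and to the left, against 83.33% of the OS, and the core in 50% and 16.67%, against 100%. No gene had an OS within 1000 bp of a TSS, 3 had one within 5000 bp, and 1 had a MACS2 peak within 1000 bp. The median position of 44.02% was 28.08% in the MACS2 list and 69.27% with windows of 10 kb. Of the 6 OS, 0 met a MACS2 peak with reciprocal overlap of 50%, since MACS2 peaks were wider. Pathway genes with an OS fell from 20 to 12 with windows of 10 kb. In all, 24 alternative values, those of this kind given here included, stayed within 1.5 times the reported count or within its interval. No paired analysis was possible because each list gives 1 set of peaks for both replicates together. No value has an error between replicates, the depth behind each peak is unknown here, and nearness to a gene does not show that an OS acts on it.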
